A study of Mus musculus with 6 samples.

Results

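Transcripts of 34 genes typical of liver sinusoidal endothelial cells were followed through 6 RNA sequencing libraries of sorted mouse hepatic stellate cells. The genes form a list of symbols drawn up with earlier results of these data known, and each of the 34 was present among the 24346 symbols listed per library. Stellate cells store vitamin A beside the sinusoids. They were taken from wild type C57BL/6 mice aged 35 weeks, and 3 kinds of liver tissue were used: the tumour region of livers of mice on a high-fat diet, the non-tumour region of such livers, and livers of mice on a normal diet. Each tissue was perfused at 37 or at 6 degrees, and the series compares the 37 degree isolation with the 6 degree isolation. After isolation, cells were kept if they stained for CD49a and lacked CD31 and CD45.2, so endothelial cells, which carry CD31, were meant to be removed in every group. Each of the 6 combinations had 1 library, and the labels do not say how many animals a library held.

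Sinusoidal endothelial cells line the liver sinusoids and are separated from stellate cells by the space of Disse. They have open pores in place of a continuous basement membrane, and they clear waste molecules from blood with scavenger and lectin receptors. As in other vessels, their identity rests on VEGF and angiopoietin receptors, adherens junctions built on VE-cadherin, and ETS and SOXF transcription factors. Capillary and large-vessel endothelium differs from them in making more von Willebrand factor and in its closed lining. In bulk libraries such as these, fewer cells of a type and less RNA per cell cannot be told apart.

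Levels are given as the FPKM values deposited by the authors, in which fragments are counted relative to transcript length and library size. The libraries held an estimated 1.68e+07 to 2.34e+07 fragments, read from the size of 1 fragment in low values. Stellate markers were high in each library, with Lrat, the vitamin A-esterifying enzyme, at 335 to 538 FPKM, and the filament gene Des at 93.8 to 135 FPKM. Macrophage markers were highest in the tumour region, where 19 of them summed to 1150 FPKM at 37 degrees and 3000 FPKM at 6 degrees. The same sum was 44.3 and 809 FPKM in the non-tumour region and 61.5 and 651 FPKM in normal diet livers, again with 37 degrees first. The 20 hepatocyte markers summed to between 46.4 and 421 FPKM in the 6 libraries. The macrophage gene Csf1r ranged from 0.479 to 70.3 FPKM, and Ptprc, which encodes CD45, from 0.375 to 16.5 FPKM.

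Isolation at 37 degrees went with far lower endothelial transcript levels than isolation at 6 degrees. Of the 34 genes, 33 were lower at 37 degrees in each of the 3 liver sources, and 1, Plvap, was higher in each. The median endothelial gene at 37 degrees stood at 20.6% of its 6 degree FPKM in the tumour region, 12.1% in the non-tumour region and 3.12% in normal diet livers. By limma on log2(FPKM + 1), with liver source as a term, 29 of the 34 fell and 0 rose at an adjusted p under 0.05 (33 lower and 1 higher by unadjusted p). In the same comparison 5.13% of the 11556 genes tested passed, 4.62% as lower and 0.511% as higher. The median log2 fold change of the 34 was -2.88, against 0.0139 over the genes tested.

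The groups stood apart for most of these genes. In 32 of the 34, the 3 libraries of 37 degrees were all below the 3 libraries of 6 degrees, which was so for 9.41% of the genes tested. The exceptions were Plvap and Vwf. All 34 passed the filter of a mean of 1 FPKM over the 6 libraries. However, Erg, Vwf and Sox17 had a mean under 1 FPKM at 37 degrees and so passed through their 6 degree values. The calls of Erg and Sox17, counted among the 29 that fell, are thus a description rather than support. In the normal diet library of 37 degrees, 16 of the 34 were under 1 FPKM, against 2 in each 37 degree library of the high-fat livers.

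The count of passing genes was lowest when the non-tumour pair of libraries was left out. Without that pair 2 of the 34 passed, the angiopoietin receptor Tek and the atypical chemokine receptor Gpr182. By unadjusted limma p under 0.05, 32 were still lower, and the median log2 fold change was still -2.85. Without the tumour pair 31 passed, and without the normal diet pair 27 passed, with medians of -3.23 and -2.43. Over all genes 83 passed without the non-tumour pair, 460 without the tumour pair and 397 without the normal diet pair, against 593 with all 6 libraries, so the loss was not confined to the 34.

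**Figure D1:**
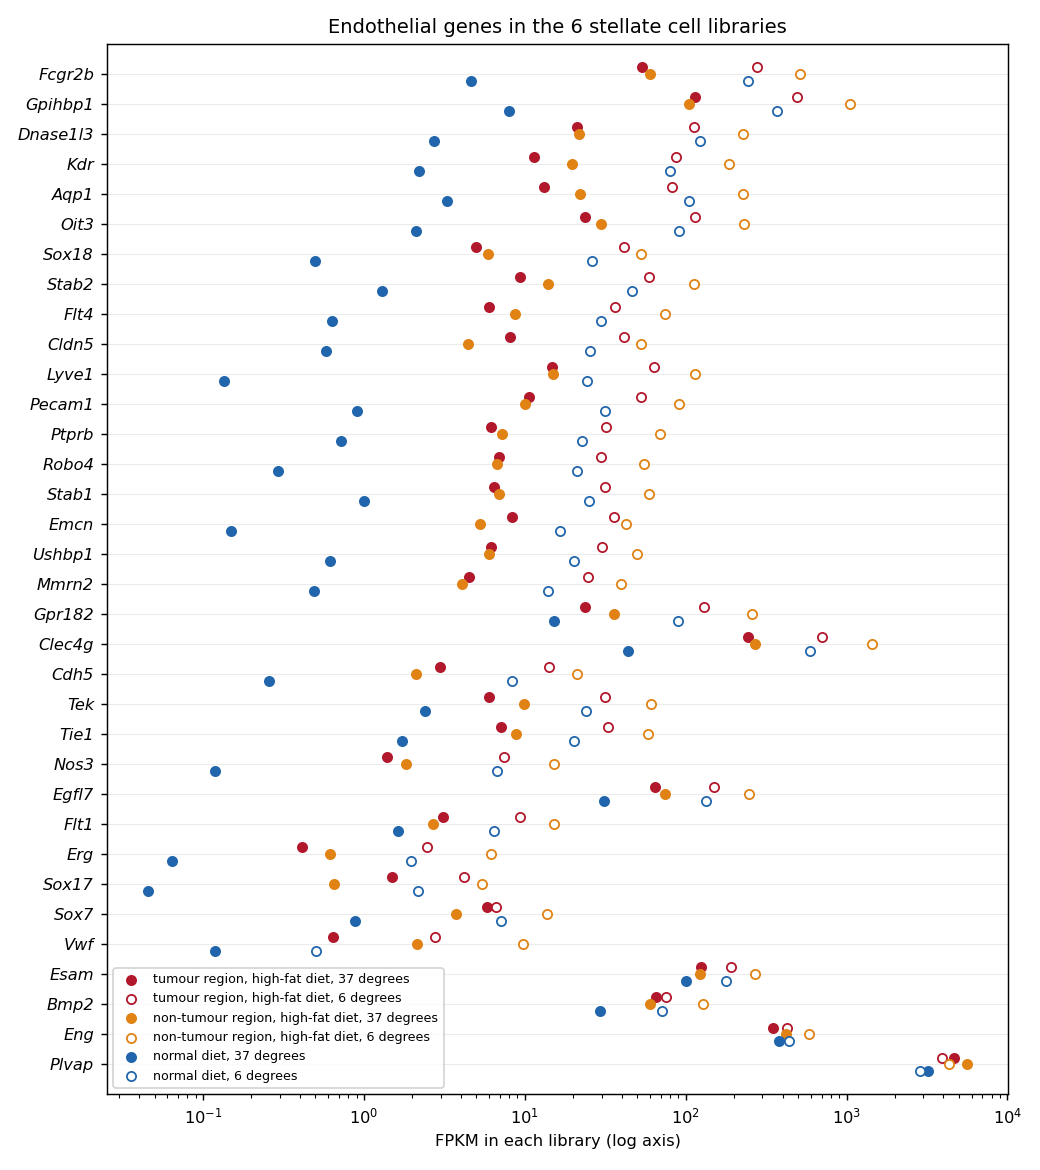
FPKM of the 34 endothelial genes in each of the 6 libraries (log axis), ordered from the most negative to the most positive temperature fold change; filled points are 37 degrees, open points 6 degrees, and colours mark the liver source. Within each source the filled point lies left of the open one for 33 genes, and all filled points lie left of all open ones for 32; the filled normal diet point is the lowest for most genes, and Plvap at the bottom lies between 2851 and 5634 FPKM with no such separation.

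Pecam1 encodes CD31, the adhesion molecule of the sort gate, and lies on chromosome 11 (106654217 to 106750628). It was at 10.7, 9.99 and 0.9 FPKM at 37 degrees in the tumour, non-tumour and normal diet libraries. At 6 degrees it was at 53.0, 90.6 and 31.4 FPKM in the same order. The 6 degree libraries thus held CD31 transcript after a sort against the CD31 protein, and the normal diet library of 37 degrees held 2.87% of its 6 degree partner's level. Pecam1 fell by 3.12 ± 0.34 on the log2 scale (moderated SE from the fit to all 6 libraries, limma adjusted p = 0.0121). The CD31 protein itself was not measured here.

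Growth factor and angiopoietin receptors, grouped with the phosphatase gene Ptprb, made up 7 of the genes, and 6 fell with 37 degree isolation. Kdr, VEGF receptor 2 (chromosome 5, 75932827 to 75978458), had the largest change of the 7, with a log2 fold change of -3.56 ± 0.35 (limma adjusted p = 0.0111). Flt4, VEGF receptor 3 and the receptor for lymphatic VEGF (chromosome 11, 49609263 to 49652739), was at 6.03, 8.75 and 0.636 FPKM at 37 degrees in the tumour, non-tumour and normal diet libraries. Its 6 degree levels were 36.4, 74.7 and 29.9 FPKM, and it fell by 3.20 ± 0.34 (adjusted p = 0.0117). Flt1, VEGF receptor 1, had a smaller fold. Flt1 was at 3.11, 2.70 and 1.63 FPKM at 37 degrees, compared with 9.29, 15.2 and 6.42 FPKM at 6 degrees, in the same order of sources, and fell by 1.65 ± 0.18 (adjusted p = 0.0126).

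The angiopoietin receptor gene Tek (chromosome 4, 94739289 to 94874976) and its partner Tie1 (chromosome 4, 118471191 to 118490061) were lower at 37 degrees in each source, with Tek at 18.8%, 16.3% and 9.87% of its 6 degree level in the tumour, non-tumour and normal diet pair. Tek was at 5.96, 9.95 and 2.38 FPKM at 37 degrees in the tumour, non-tumour and normal diet libraries, against 31.7, 61.2 and 24.1 FPKM at 6 degrees. Tek fell by 2.54 ± 0.14 (limma adjusted p = 0.0071) and Tie1 by 2.54 ± 0.18 (adjusted p = 0.00856). Ptprb, the phosphatase that restrains Tek and VE-cadherin signalling, fell by 3.02 ± 0.29 (adjusted p = 0.0108). Eng, the TGF-beta and BMP co-receptor endoglin (chromosome 2, 32646595 to 32682669), did not pass. Eng was at 350, 421 and 378 FPKM at 37 degrees, compared with 427, 588 and 438 FPKM at 6 degrees in the same order of sources. Its log2 fold change was -0.33 ± 0.08 (adjusted p = 0.101), and the highest 37 degree value nearly reached the lowest 6 degree value. Under quantile normalization Eng passed as lower (adjusted p = 0.0358).

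Scavenging and binding receptors, which carry out blood clearance, fell in 5 of 5 cases. Clec4g, the sinusoidal lectin LSECtin (chromosome 8, 3707064 to 3720651), was the most abundant of them. It was at 246, 269 and 43.9 FPKM at 37 degrees in the tumour, non-tumour and normal diet libraries, against 704, 1446 and 592 FPKM at 6 degrees. Clec4g fell by 2.55 ± 0.40 (limma adjusted p = 0.0287). Fcgr2b, the inhibitory Fc receptor that takes up immune complexes (chromosome 1, 170958617 to 170976547), had the most negative fold change of the 34 genes, at -3.63 ± 0.58 (adjusted p = 0.0307). Fcgr2b was at 53.8, 60.0 and 4.60 FPKM at 37 degrees, compared with 277, 514 and 245 FPKM at 6 degrees in the same order. Its normal diet difference alone was -5.46 on the log2 scale.

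The scavenger receptor genes Stab1 and Stab2 both fell. Stab1 (chromosome 14, 31139013 to 31168641) fell by 2.93 ± 0.29 (limma adjusted p = 0.0109) and Stab2 (chromosome 10, 86841198 to 87008025), which also takes up hyaluronan, by 3.27 ± 0.35 (adjusted p = 0.0115). Lyve1, a hyaluronan receptor of sinusoidal and lymphatic endothelium (chromosome 7, 110850607 to 110863239), differed most between the normal diet library of 37 degrees and the others. Lyve1 was at 14.8, 15.1 and 0.136 FPKM at 37 degrees in the tumour, non-tumour and normal diet libraries, against 63.7, 115 and 24.4 FPKM at 6 degrees. The lowest of these values corresponds to an estimated 7.63 fragments. Lyve1 fell by 3.12 ± 0.45 (adjusted p = 0.0225), but missed the threshold when 0.1 FPKM was the pseudocount (adjusted p = 0.0873).

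The other sinusoidal genes, for lipase anchoring, DNA clearance, water transport and chemokine scavenging, fell in 5 of 5 cases. Gpihbp1, which anchors lipoprotein lipase to capillaries (chromosome 15, 75596628 to 75599481), was at 115, 105 and 7.98 FPKM at 37 degrees in the tumour, non-tumour and normal diet libraries. At 6 degrees it was at 495, 1045 and 368 FPKM, and its fold change was -3.59 ± 0.585 (limma adjusted p = 0.0336). Dnase1l3, a secreted DNase, had -3.59 ± 0.485 (adjusted p = 0.0203), the water channel gene Aqp1 -3.50 ± 0.37 (adjusted p = 0.0117) and Oit3, a sinusoidal surface protein gene, -3.34 ± 0.49 (adjusted p = 0.0249). Gpr182, an atypical chemokine receptor (chromosome 10, 127747276 to 127751732), kept nearly the same proportion in each source. Gpr182 was at 23.6, 36.0 and 15.1 FPKM at 37 degrees, compared with 131, 258 and 89.4 FPKM at 6 degrees. That is 18.1%, 14.0% and 16.9% of the 6 degree level, and the log2 fold change was -2.57 ± 0.10 (adjusted p = 0.0071).

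Of 7 junction and surface genes, 6 fell. Cdh5, which encodes VE-cadherin (chromosome 8, 104101625 to 104144511), was at 2.99, 2.11 and 0.259 FPKM at 37 degrees in the tumour, non-tumour and normal diet libraries. At 6 degrees it was at 14.1, 21.0 and 8.37 FPKM, and it fell by 2.55 ± 0.22 (limma adjusted p = 0.00866). Cldn5, the endothelial tight junction claudin (chromosome 16, 18776847 to 18778262), fell by 3.20 ± 0.34 (adjusted p = 0.0114). Emcn, the sialomucin endomucin, and Robo4, an endothelial guidance receptor, both fell, at -2.90 ± 0.36 and -2.98 ± 0.39 on the log2 scale (adjusted p = 0.0159 and 0.0187), and neither passed with a pseudocount of 0.1 FPKM (adjusted p = 0.0692 and 0.0608). Esam, an adhesion molecule, fell by 0.85 ± 0.11 (adjusted p = 0.0188). Esam was at 125, 124 and 99.9 FPKM at 37 degrees, compared with 190, 270 and 177 FPKM at 6 degrees, and it did not pass without the normal diet pair (adjusted p = 0.066).

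Plvap stood apart from the other 33 genes. It encodes the diaphragm protein of fenestrae and caveolae and lies on chromosome 8 (71497765 to 71511752). Plvap was at 4653, 5634 and 3229 FPKM at 37 degrees in the tumour, non-tumour and normal diet libraries, against 3922, 4338 and 2851 FPKM at 6 degrees. It ranked between 8 and 12 among the symbols of each library and held 79.1%, 80.5% and 83.6% of the summed FPKM of the 34 genes at 37 degrees, and 53.3%, 40.4% and 49.6% at 6 degrees. It did not pass, at 0.27 ± 0.09 on the log2 scale (limma adjusted p = 0.178). Plvap overlaps Gtpbp3, on the other strand, over 1819 bases. Gtpbp3 was at 1.95 to 3.74 FPKM in the 6 libraries, and sharing of reads between them was not tested. Across the 6 libraries the log2 level of Plvap had r = 0.065 with the mean of the other 33 genes, whereas 31 of the 34 had r over 0.9. These correlations describe 6 libraries that share the temperature groups.

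Because of Plvap, sums over the genes changed less than single genes did. The summed FPKM of the 34 was 80.0%, 65.3% and 67.3% of the 6 degree sum in the tumour, non-tumour and normal diet pair. Without Plvap and Eng, left out after their values were seen, the sums were 883, 947 and 257 FPKM at 37 degrees against 3010, 5800 and 2460 FPKM at 6 degrees. The remaining sum at 37 degrees was then 29.3%, 16.3% and 10.5% of that at 6 degrees.

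Transcription factors of endothelial identity fell in 3 of 4 cases. Of these, Erg and Sox17 averaged under 1 FPKM at 37 degrees and passed the filter through their 6 degree values. Their calls are a description rather than support. Erg, the ETS factor that maintains endothelial genes (chromosome 16, 95359169 to 95586593), was at 0.411, 0.616 and 0.0642 FPKM at 37 degrees in the tumour, non-tumour and normal diet libraries, against 2.47, 6.17 and 1.95 FPKM at 6 degrees. Erg fell by 1.64 ± 0.21 (limma adjusted p = 0.0168), and did not pass without the normal diet pair (adjusted p = 0.0538). The SOXF factors Sox18 and Sox17 both fell, at -3.32 ± 0.28 and -1.54 ± 0.20 on the log2 scale (adjusted p = 0.00866 and 0.0194). Sox18 was at 5.01, 5.90 and 0.496 FPKM at 37 degrees, compared with 41.3, 52.4 and 26.2 FPKM at 6 degrees. Sox17 missed the threshold when 0.1 FPKM was the pseudocount and without the normal diet pair (adjusted p = 0.0554 and 0.069), and its normal diet value at 37 degrees rested on an estimated 2.85 fragments. Sox7, the remaining SOXF gene, was at 5.84, 3.76 and 0.883 FPKM at 37 degrees, compared with 6.62, 13.7 and 7.07 FPKM at 6 degrees. Its 37 degree level in the tumour region was 88.1% of the 6 degree level, against 27.4% in the non-tumour region and 12.5% in normal diet livers. Sox7 did not pass (log2 fold change -1.29 ± 0.37, adjusted p = 0.136), but did so as lower without the tumour pair (adjusted p = 0.0073).

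Secreted, matrix and signalling genes fell in 4 of 6 cases. Mmrn2, an endothelial matrix multimerin, fell by 2.86 ± 0.22 (limma adjusted p = 0.00856), Nos3, endothelial nitric oxide synthase, by 2.37 ± 0.21 (adjusted p = 0.00927). Ushbp1 also fell, at -2.90 ± 0.30 on the log2 scale (adjusted p = 0.0114). Egfl7, a secreted vessel guidance factor, was at 64.7, 74.1 and 31.1 FPKM at 37 degrees, compared with 150, 249 and 135 FPKM at 6 degrees, and fell by 1.67 ± 0.17 (adjusted p = 0.0112). Bmp2, the sinusoidal ligand that drives hepcidin in hepatocytes (chromosome 2, 133552159 to 133562885), was at 65.1, 59.6 and 29.5 FPKM at 37 degrees in the tumour, non-tumour and normal diet libraries. Its 6 degree levels were 75.1, 129 and 70.9 FPKM, and it did not pass, at -0.85 ± 0.21 on the log2 scale (adjusted p = 0.098). Bmp2 passed as lower without the tumour pair (adjusted p = 0.0048).

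Vwf, von Willebrand factor (chromosome 6, 125546774 to 125686679), was low in most libraries. It was at 0.640, 2.13 and 0.119 FPKM at 37 degrees in the tumour, non-tumour and normal diet libraries, compared with 2.76, 9.81 and 0.500 FPKM at 6 degrees. The temperature groups overlapped, since the non-tumour library of 37 degrees was above the normal diet library of 6 degrees. Within each source the 37 degree level was 21.7% to 23.7% of the 6 degree level. Vwf missed the threshold at the usual pseudocount of 1 FPKM (log2 fold change -1.14 ± 0.27, limma adjusted p = 0.093), and passed as lower with a pseudocount of 0.1 FPKM (adjusted p = 0.0319).

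**Figure D2:**
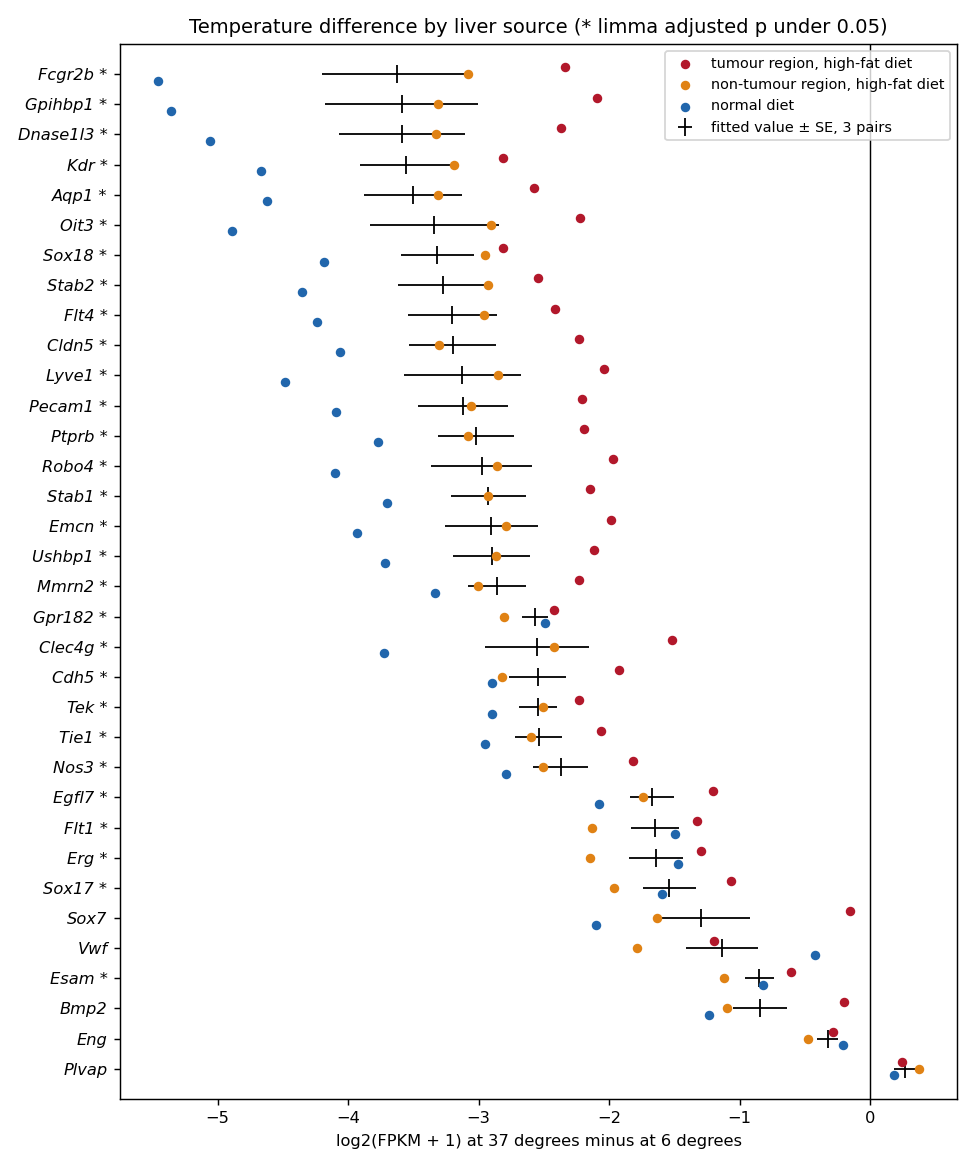
Difference of log2(FPKM + 1), 37 minus 6 degrees, for each of the 34 genes in each liver source (coloured points), with the fitted value over the 3 pairs and its SE (black). The difference was most negative in normal diet livers for most genes, with medians of -2.08, -2.84 and -3.71 in the tumour, non-tumour and normal diet pairs, and only Plvap lies right of 0.

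The size of the 37 degree deficit differed between sources in this order for most genes, but with 1 library per group that difference was not tested. Among genes whose level at 37 degrees was far apart between sources were Lyve1, at 23.2%, 13.1% and 0.556% of its 6 degree level in the tumour, non-tumour and normal diet pair, and Emcn, at 23.2%, 12.4% and 0.9%. Robo4 was at 23.0%, 12.2% and 1.39%. In contrast Gpr182, Vwf, Eng, Esam and Plvap each kept proportions within a factor of 1.5 across the 3 pairs, with Esam at 65.4%, 45.8% and 56.4%.

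Promoters of some of these genes were read for CAGGAA and CCGGAA, forms of the ETS element bound by Erg and its relatives, because most of the genes moved together. Other forms of the ETS element were not searched. RefSeq promoter entries on GRCm38.p6, from 250 bases before to 50 bases after a transcription start, were at hand for 17 of the 34 genes, with 21 entries in all. The letters CAGGAA, on either strand (TTCCTG on the other), were in 12 of these 21 entries, from 11 genes, and in 30.6% of the 32851 promoters of the same length. The related letters CCGGAA, on either strand, were in 1 of the 21, that of Kdr, and in 14.9% of all promoters. The SOX letters ACAATG were in 2 of the 21 and in 12.6% of all promoters. Such matches describe letters and not bound sites. Printed 5′ to 3′ with CAGGAA or CCGGAA, on either strand, in capitals, 3 genes that fell are followed by Eng, which did not pass.
Tie1, chr4:118489800-118490099, minus strand: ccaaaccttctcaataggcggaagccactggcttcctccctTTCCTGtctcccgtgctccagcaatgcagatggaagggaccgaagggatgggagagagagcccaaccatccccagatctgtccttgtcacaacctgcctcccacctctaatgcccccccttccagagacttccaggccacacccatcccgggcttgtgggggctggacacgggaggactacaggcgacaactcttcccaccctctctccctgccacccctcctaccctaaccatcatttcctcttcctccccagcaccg
Clec4g, chr8:3720602-3720901, minus strand: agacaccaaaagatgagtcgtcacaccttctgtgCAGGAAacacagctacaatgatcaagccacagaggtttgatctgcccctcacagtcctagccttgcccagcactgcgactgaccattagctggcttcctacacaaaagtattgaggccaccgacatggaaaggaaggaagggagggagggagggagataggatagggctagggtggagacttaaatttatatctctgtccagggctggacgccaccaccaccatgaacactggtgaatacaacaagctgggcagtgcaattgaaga
Kdr, chr5:75978406-75978705, minus strand: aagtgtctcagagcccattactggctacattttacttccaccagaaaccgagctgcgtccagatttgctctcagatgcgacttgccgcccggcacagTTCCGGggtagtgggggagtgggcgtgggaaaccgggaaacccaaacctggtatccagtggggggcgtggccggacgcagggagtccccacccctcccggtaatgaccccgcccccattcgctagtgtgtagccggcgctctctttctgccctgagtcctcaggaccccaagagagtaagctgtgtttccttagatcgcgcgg
Eng, chr2:32646345-32646644, plus strand: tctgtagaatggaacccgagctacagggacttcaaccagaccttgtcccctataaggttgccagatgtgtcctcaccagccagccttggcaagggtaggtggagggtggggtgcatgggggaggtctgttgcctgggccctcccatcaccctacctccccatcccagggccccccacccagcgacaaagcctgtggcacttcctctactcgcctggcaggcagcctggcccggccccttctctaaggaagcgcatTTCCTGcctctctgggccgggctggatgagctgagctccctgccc
Each of the 4 windows holds 1 match to the letters searched, of the CCGGAA kind in Kdr and of the CAGGAA kind in the other 3. Other forms of the ETS element in these windows were not marked.

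Other endothelial genes outside the 34 moved less uniformly. Of 42 such genes listed in the files 38 could be tested, and 23 fell and 0 rose with 37 degree isolation, with a median log2 fold change of -1.38. The 3 with the largest change were Cd300lg, Cd36 and Adgrl4. Cd300lg, a capillary surface glycoprotein, was at 10.6, 15.1 and 1.21 FPKM at 37 degrees in the tumour, non-tumour and normal diet libraries, compared with 52.5, 130 and 57.6 FPKM at 6 degrees. It fell by 3.32 ± 0.46 (limma adjusted p = 0.021), and the fatty acid transporter gene Cd36 had -3.25 ± 0.36 (adjusted p = 0.013) and the adhesion receptor gene Adgrl4 -3.22 ± 0.43 (adjusted p = 0.0196). Genes such as Thbd, Tmem204 and Calcrl did not pass, at -0.10, 0.11 and 0.20 on the log2 scale (limma adjusted p = 0.648, 0.465 and 0.231). Over the 6 libraries they were at 22.4 to 38.5, 338 to 443 and 123 to 205 FPKM. Whether these transcripts came from endothelial cells was not tested. Markers of other cells differed in direction. Macrophage genes had a median of -2.64 with 12 of 17 lower, hepatocyte genes -1.08 with 0 of 14 passing by limma (3 at an unadjusted p under 0.05), and stellate genes 0.37 with 4 of 20 higher. The hepatocyte median differed in sign between sources, at 0.387 in the tumour, -0.947 in the non-tumour and -2.25 in the normal diet pair. Macrophage genes thus moved with the endothelial genes, and their part in the result was not tested.

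**Figure D3:**
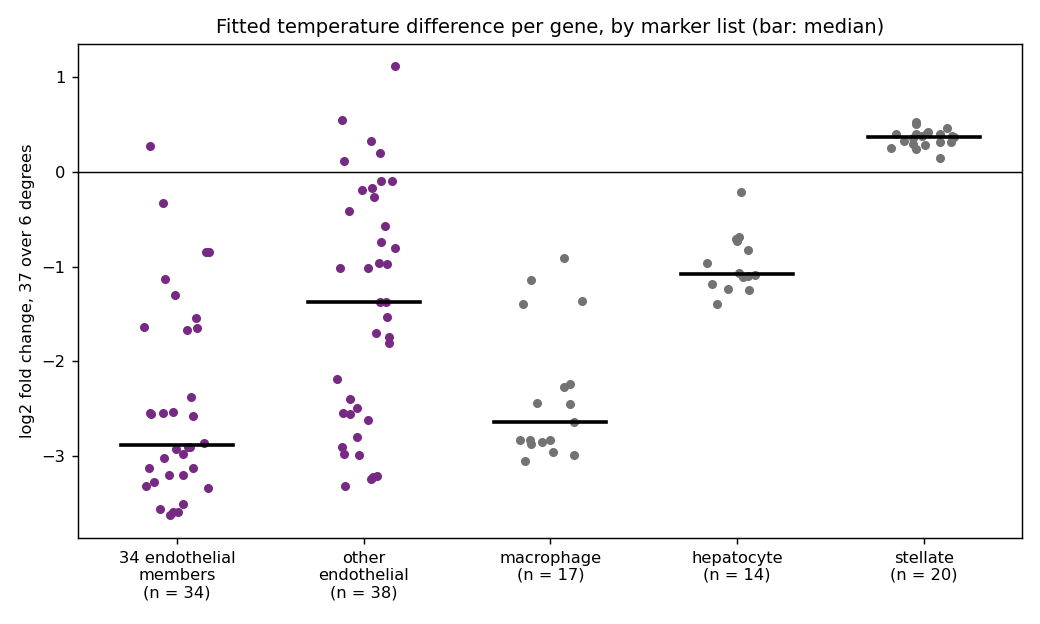
Fitted log2 fold change, 37 over 6 degrees, of each tested gene in 5 marker lists, with the median as a bar. The 34 endothelial genes centre on -2.88, the other endothelial genes spread from -3.32 to 1.11 around -1.38, macrophage genes centre on -2.64, and stellate genes lie between 0.149 and 0.523.

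Genes outside the endothelial lists were ranked by how closely their log2 levels followed the mean of the 34 over the 6 libraries. Among 10 with the highest Pearson r, from 0.993 to 0.999, were F8, the coagulation factor VIII gene, and Dpp4, a membrane peptidase. F8 was at 4.83, 7.06 and 0.659 FPKM at 37 degrees in the tumour, non-tumour and normal diet libraries, compared with 30.0, 62.0 and 19.5 FPKM at 6 degrees. The other 8 were Adgrg3, Fmo1, Cd55, Gimap4, Fam167b, Hdc, Tmem2 and B3gnt3. They were picked for this likeness out of 360 genes whose mean reached 5 FPKM and whose log2 SD reached 1, and 6 libraries carry the pattern.

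Across liver sources, endothelial transcripts were higher in the non-tumour region than in normal diet livers. All 34 genes were higher at both temperatures, as were 37.7% of the genes tested. Of the 34, 8 rose and 0 fell by limma with temperature as a term (33 higher and 0 lower by unadjusted p), where 5.56% of the genes tested passed, 2.98% as higher and 2.59% as lower. These were Tek, Tie1, Ptprb, Lyve1, Gpr182, Mmrn2, Vwf and Plvap, and the median of the 34 was 1.63 on the log2 scale. By FPKM ratio the median gene was 2.46 times as high in the non-tumour region as in normal diet livers at 6 degrees, and 8.61 times at 37 degrees. On the log2(FPKM + 1) scale the median differences were 1.25 at 6 degrees and 1.91 at 37 degrees. The ratios at 37 degrees rest on a normal diet library in which 16 of the 34 genes were under 1 FPKM.

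Vwf and Lyve1 differed from the typical gene. The 6 degree level of Vwf in the non-tumour region was 19.6 times that in normal diet livers. Its log2 fold change was 2.17 ± 0.34 (moderated SE from the fit to all 6 libraries, limma adjusted p = 0.0273). Vwf averaged 0.309 FPKM in the normal diet libraries and so passed the filter of 1 FPKM only through the high-fat libraries, which makes its call a description rather than support. Lyve1 in the non-tumour region was 4.70 times as high at 6 degrees, and its log2 fold change was 3.0 ± 0.55 (adjusted p = 0.0433). Gpr182 rose by 1.36 ± 0.12 (adjusted p = 0.00802), and Tek and Tie1 rose by 1.5 ± 0.18 and 1.665 ± 0.22 (adjusted p = 0.0141 and 0.0179). Ptprb rose by 1.91 ± 0.36 (adjusted p = 0.0465), Mmrn2 by 1.60 ± 0.27 (adjusted p = 0.0354) and Plvap by 0.70 ± 0.11 (adjusted p = 0.0273). Under quantile normalization the log2 fold change of Plvap was 0.16 and it did not pass (limma adjusted p = 0.537). With a pseudocount of 0.1 FPKM Lyve1, Ptprb and Mmrn2 did not pass (limma adjusted p = 0.107, 0.0842 and 0.0812).

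This count depended on single libraries. The tumour libraries do not enter this difference, and without either of them folds such as those of Lyve1 and Tek were unchanged. The number of the 34 passing was 27 without either tumour library, 20 without the normal diet library of 6 degrees, 2 without the normal diet library of 37 degrees and 0 without either non-tumour library (26 and 24 at an unadjusted p under 0.05). The count over all genes moved too, with 885 and 901 passing without the tumour library of 37 or 6 degrees, 306 and 159 without the normal diet library of 6 or 37 degrees and 0 without either non-tumour library, against 643 with all 6. In the same contrast the macrophage list had a median of -0.03, with 0 of 17 passing by limma. The stellate list had a median of 0.18, with 5 of 20 higher and 0 lower. Of the other endothelial genes 11 of 38 were higher and 0 lower, with a median of 1.13. Itga1, whose product CD49a was the positive sort marker, was at 204 and 161 FPKM in the non-tumour libraries of 37 and 6 degrees and at 90.5 and 87.6 FPKM in the normal diet ones.

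The tumour region also stood above normal diet livers for most of the genes, with less separation at 6 degrees. Of the 34, 30 were higher at both temperatures, against 35.7% of the genes tested, and Eng was lower at both. By FPKM ratio the median gene was 7.47 times as high in the tumour region at 37 degrees and 1.33 times at 6 degrees. On the log2(FPKM + 1) scale the median differences were 1.88 and 0.404, and the same low normal diet values at 37 degrees apply. By limma 5 rose and 0 fell (23 higher and 0 lower by unadjusted p), where 9.36% of the genes tested passed, 6.07% as higher and 3.29% as lower. The 5 were Lyve1, Emcn, Mmrn2, Tie1 and Gpr182. Lyve1 rose by 2.57 ± 0.55 (adjusted p = 0.0483), Emcn by 2.05 ± 0.44 (adjusted p = 0.049), Mmrn2 by 1.33 ± 0.27 (adjusted p = 0.0438), Tie1 by 1.14 ± 0.22 (adjusted p = 0.0381) and Gpr182 by 0.58 ± 0.12 (adjusted p = 0.0458). At 6 degrees Aqp1 and Dnase1l3 were lower in the tumour region, at 82.8 against 104 FPKM and at 113 against 123 FPKM in normal diet livers. Vwf was 5.51 times as high there at 6 degrees, without passing (log2 fold change 0.94 ± 0.34, adjusted p = 0.158).

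The non-tumour libraries do not enter the difference between the tumour region and normal diet. Without either of them the folds of the 5 genes were unchanged. The count of passing genes moved here too with single libraries. It was 18 without the tumour library of 6 degrees and 14 without the normal diet library of 6 degrees. It was 0 without any of the other 4 libraries, with 11 to 19 at an unadjusted p under 0.05. Over all genes 962 and 394 passed without the tumour or the normal diet library of 6 degrees, and 300 to 658 without 1 of the other 4, against 1082 with all 6. In the same contrast 11 of 17 macrophage genes were higher, with a median of 2.63, and their part in the result was not tested. Of 20 stellate genes 6 were higher and 4 lower, and of 38 other endothelial genes 12 were higher and 2 lower. The contrasts of both high-fat regions use the same normal diet libraries, so their calls are not independent of each other.

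**Figure D4:**
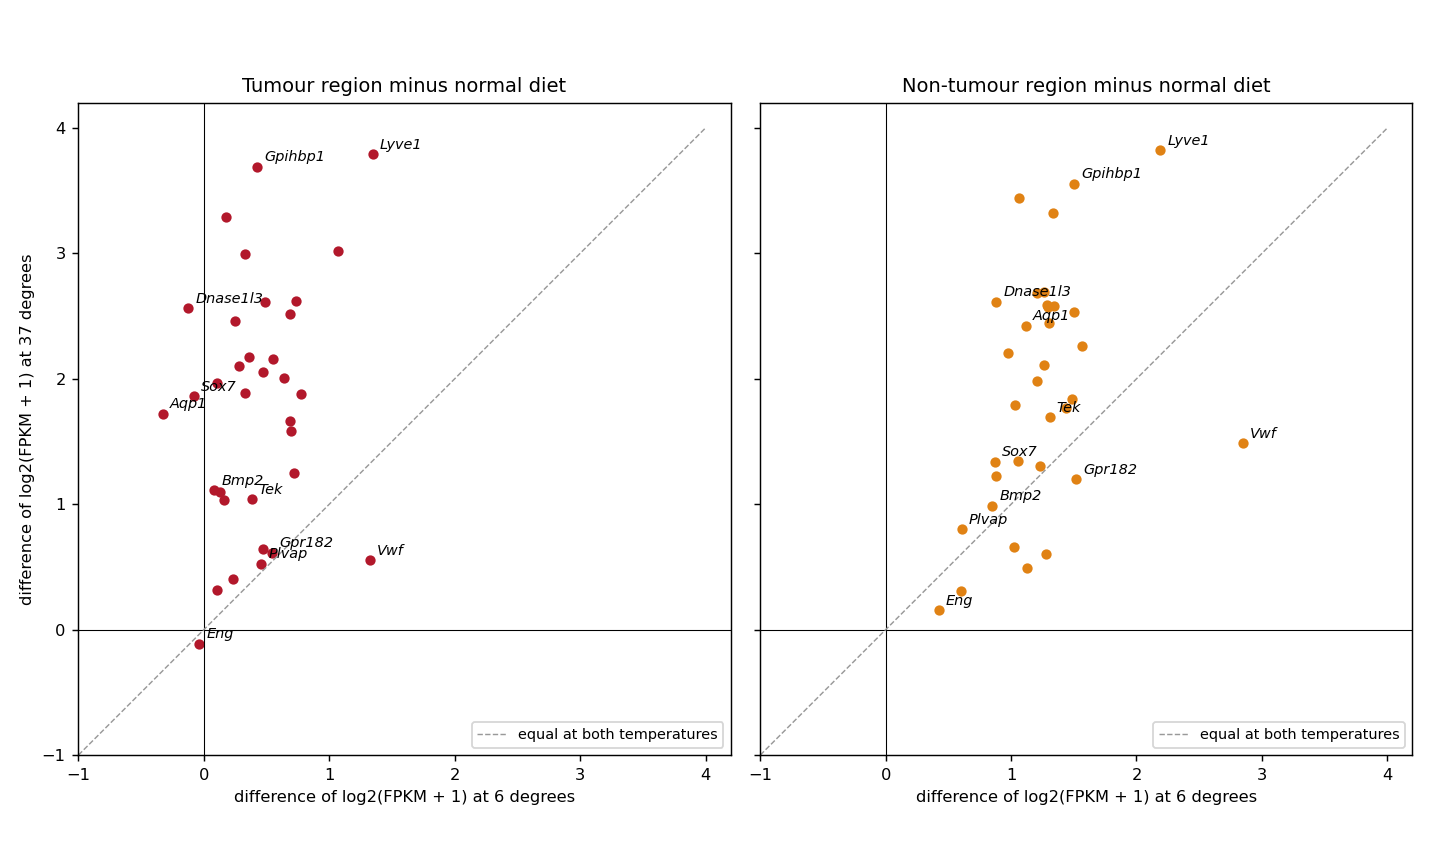
Difference of log2(FPKM + 1) from normal diet livers for the 34 genes, in the tumour region (left) and the non-tumour region (right), at 6 degrees (horizontal axis) and at 37 degrees (vertical axis). Most points lie above the dashed line of equality, Vwf lies below it in both panels, and Aqp1, Dnase1l3, Sox7 and Eng lie left of 0 in the tumour panel.

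Between the tumour and the non-tumour region 0 of the 34 genes passed by limma in either direction (4 lower and 0 higher by unadjusted p). Over the genes tested 0.45% were called higher and 0 lower (434 lower at an unadjusted p under 0.05). At 6 degrees each of the 34 was lower in the tumour region, with a median of 0.541 times the non-tumour level. At 37 degrees 13 were higher in the tumour region, and the median was 0.905. The 3 genes with the largest change were Vwf, Aqp1 and Kdr, at -1.23 ± 0.34, -1.07 ± 0.46 and -0.91 ± 0.43 on the log2 scale (limma adjusted p = 0.319, 0.524 and 0.551). Aqp1 was at 13.1 and 82.8 FPKM in the tumour region at 37 and 6 degrees, against 21.9 and 227 FPKM in the non-tumour region.

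The makeup of the summed signal was described as each gene's share of the summed FPKM of the 34 genes without Plvap and Eng. At 6 degrees, where the sum was large, Clec4g and Gpihbp1 led in every source. Clec4g held 23.4%, 24.9% and 24.1% of the sum in the tumour, non-tumour and normal diet libraries, and Gpihbp1 16.4%, 18% and 15.0%. Aqp1 held 2.75%, 3.91% and 4.24%, and Lyve1 2.12%, 1.98% and 0.995%. At 37 degrees Esam, Egfl7 and Bmp2 took larger shares, most of all in normal diet livers. In the normal diet pair these genes kept 56.4%, 23.1% and 41.6% of their 6 degree FPKM, against a median of 3.12% over the 34. Whether their remaining transcripts came from endothelial cells was not tested. Esam held 14.1%, 13.0% and 38.9% of the sum at 37 degrees in the tumour, non-tumour and normal diet libraries, against 6.32%, 4.65% and 7.21% at 6 degrees. Bmp2 held 7.37%, 6.30% and 11.5% at 37 degrees against 2.49%, 2.22% and 2.89% at 6 degrees. These shares carry no error, since each group had 1 library.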

How the data were processed

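RNA from sorted stellate cells was sequenced in 6 libraries, 1 for each combination of 3 liver sources and 2 isolation temperatures. The authors deposited FPKM per gene symbol. Per the submitters' processing notes, TopHat2 2.1.1, Bowtie2 and Cuffdiff 2.2.1 were used with mm10. Order, settings, annotation and strand use: not given in the sources used here, so reads of overlapping genes may be shared. Depth was estimated from 2203 genes with 1 transcript in GENCODE M21, as the value at which single fragments pile up, and is approximate. Fragment numbers per gene use the longest coding transcript.

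Log2(FPKM + 1) was fitted with limma 3.58.1 in R 4.3.3, with source and temperature as additive terms and an intensity trend. Genes averaging at least 1 FPKM were kept and 1311 small RNA symbols left out, leaving 11556. The model has 2 residual degrees of freedom (5.37 with the prior), which hold source-by-temperature differences and library noise together. P-values measure only that spread, which may be technical. They were adjusted by the Benjamini-Hochberg method over the genes tested. The pseudocount makes folds of low genes smaller. The script was tested on simulated data. Coordinates are from GENCODE M21 on GRCm38.

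The 34 genes, the marker lists and the tests were chosen with earlier results of these data known. Each of the 34 was to be accounted for by role, and in source contrasts the passing genes, or else the 3 with the largest change, were to be named. Thbd, Tmem204 and Calcrl, and the genes singled out for their ratios or shares, were chosen after their values were seen. Lymphatic and portal endothelial markers had 3 of 10 genes tested, Reln, Hey1 and Clu, with a median temperature log2 fold change of 0.315. Reln is also in the stellate list. The lymphatic markers Prox1, Pdpn, Ccl21a and Mmrn1 were not among the genes tested, so the median does not describe lymphatic endothelium.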

Additional observations from a re-analysis of the deposited data

Results flagged for a closer look

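Some genes had source differences of opposite sign at 37 and at 6 degrees. Values are the log2 difference at 37 degrees minus that at 6 degrees, each temperature holds 1 library per source, and the difference between temperatures was not tested. For the tumour region against normal diet, 3 genes were higher at 37 degrees and lower at 6 degrees: Dnase1l3 (2.69), Aqp1 (2.05), Sox7 (1.94). For the tumour against the non-tumour region this was so for 13 genes: Pecam1 (0.85), Flt1 (0.81), Gpihbp1 (1.21), Cdh5 (0.90), Emcn (0.81), Esam (0.51), Mmrn2 (0.78), Robo4 (0.89), Sox7 (1.47), Sox17 (0.90), Cldn5 (1.07), Ushbp1 (0.75), Bmp2 (0.89). Of these, Esam and Robo4 were higher at 37 degrees by only 0.01 and 0.03 on the log2 scale.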

How the results depend on the processing

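No paired analysis by replicate number was possible because the labels give none; liver source was the pairing term. For temperature, the 29 genes that fell became 0 without the low-value filter and 0 without the source term (limma, 30 at an unadjusted p under 0.05 in each), and between 2 and 31 with 1 pair of libraries left out; the cause was not tested. The other settings gave 26 to 30. For the tumour region against normal diet, the 5 that rose became 2 with a pseudocount of 0.1 FPKM, 2 with a mean of at least 5 FPKM, 1 with small RNA symbols kept, and 0 without the filter, without the intensity trend or without the temperature term (limma, 5, 22 and 0 unadjusted), and 0 to 18 with 1 library left out. For the non-tumour region the 8 became 5 with a pseudocount of 0.1 FPKM, with a mean of at least 5 FPKM or without the trend, 0 without the filter or the temperature term (12 and 2 unadjusted), and 0 to 27 with 1 library left out. Over the genes tested, 593 passed for temperature, 1082 when the tumour region was set against normal diet, 643 when the non-tumour region was, and 52 between both regions. With a mean of at least 5 FPKM these were 330, 681, 459 and 0; without the filter 0 each; without the other term 0, 4, 4 and 0; the 52 were 0 with a pseudocount of 0.1 FPKM and 1 with small RNA symbols kept. With 1 library left out, the median of the 34 was 0.512 to 1.7 for the tumour and 1.07 to 2.12 for the non-tumour region against normal diet; a lone library was then assumed to vary like the others. No single-gene change of sign was seen in the genes and settings run. One fragment on a kilobase of transcript stood for 0.0427 to 0.0596 FPKM, which limits the lowest values.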
